A study of Mus musculus with 9 samples.

Results

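The cytoplasmic ribosomal protein genes encode the proteins that are assembled with ribosomal RNA into the large (Rpl) and small (Rps) subunits of the ribosome. Here they were all genes whose symbol in the array annotation had the form Rpl or Rps plus a number and at most 2 letters, with Rplp0, Rplp1, Rplp2 and Rpsa, and without the Rps6k kinases and symbols marked as pseudogenes. A gene counted if a transcript cluster, the array's unit of measurement, carried its symbol alone, and the cluster with the highest mean log2 intensity was read. The rule used no difference between genotypes. It gave 59 of the 19938 genes measured, 37 of the large and 22 of the small subunit, on 17 chromosomes. A further 19 ribosomal protein symbols, among them Rpl3, Rpl11, Rpl13a, Rpl39 and Rps27, occurred only beside other symbols and were not members.

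The measurements came from blood monocytes of tumor-free mice of 3 genotypes, wild type, Ccl2-/- and Ccr2-/-, all of the Balb/c strain (Balb/cJ in the series' design) and 14 to 18 weeks old. Ccl2-/- mice lack the chemokine CCL2 and Ccr2-/- mice lack its receptor CCR2, in every cell of the body. Each genotype had 3 Affymetrix Mouse Gene 1.0 ST arrays, 9 in all, and each array held RNA of 5 pooled mice, so the spread between arrays is a spread between pools. Magnetic columns first removed cells stained for T cell (CD4 and CD8), B cell (B220), neutrophil (Ly-6G), eosinophil (CCR3) or MHC class II markers and then retained those with CD11b, and the antibodies listed for these columns hold none against NK cells. By the stated methods, monocytes were defined as positive for CD11b and Ly-6C and as lacking markers of other cells. The markers named there included NK1.1 for NK cells and CD11c for dendritic cells.

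Ribosomal protein mRNAs are among the most abundant mRNAs of most cells and are made in nearly equal proportion, since the subunits need one copy of almost every protein. Many of them begin with a C followed by an unbroken run of pyrimidines (C or T in DNA), the 5′ terminal oligopyrimidine or TOP motif. Through it the kinase complex mTORC1 and the RNA-binding protein LARP1 control their translation and stability. Monocytes, like other leukocytes, adjust their ribosome content when they grow or are activated.

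The start sites of 6 members are shown from the RefSeq promoter table of GRCm38.p6, because the TOP run at the start is the sequence feature that these genes are best known to share. Rps9, Rps4x and Rpl14 are the members past the test below that the table holds, and Rps6, Rps18 and Rpl28 are further examples with a long run, chosen for it. Each line gives 15 bases before and 15 bases after the annotated start, 5′ to 3′ on the gene's strand, and capitals mark the longest run of C or T.
Rps9, chr7:3704026-3704055, plus strand: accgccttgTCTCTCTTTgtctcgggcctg
Rps4x, chrX:102189377-102189406, minus strand: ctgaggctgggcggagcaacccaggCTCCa
Rpl14, chr9:120571502-120571531, plus strand: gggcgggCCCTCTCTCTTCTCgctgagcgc
Rps6, chr4:86857353-86857382, minus strand: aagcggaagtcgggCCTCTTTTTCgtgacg
Rps18, chr17:33955651-33955680, minus strand: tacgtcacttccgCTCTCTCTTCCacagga
Rpl28, chr7:4792950-4792979, plus strand: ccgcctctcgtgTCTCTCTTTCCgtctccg

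The run was 14 bases long in Rpl14, 11 in Rps18 and Rpl28, 10 in Rps6 and 9 in Rps9, and spanned the annotated start in all 5. In Rps9 the base at the annotated start was a T, so its run did not meet the TOP definition above at that start. In Rps4x the longest run within this window was 4 bases and lay after the start. The table held 47 of the 59 members with 56 start windows. A run of at least 8 C or T within the 30 bases around the start was found in 18 of the 56 windows, 32.1%, against 12% of all 32851 windows. Such a run could lie anywhere in the 30 bases and did not have to begin with a C at the start, as a TOP motif does. Across the whole 300 bases, searched on both strands, CCGGAAG occurred in 33.9% of the members' windows and 8.86% of all windows, while AAGATGGC occurred in 3.57% and 2.75%. CCGGAAG is a form of the ETS factor motif and AAGATGGC of the YY1 motif. Rpl21, Rpl23a, Rpl29, Rpl30, Rpl36, Rpl7, Rpl8, Rplp1, Rps14, Rps20, Rps29 and Rps4l had no entry.

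The libraries differed in more than the targeted genes. Ccr2 read 9.41 to 9.47 on the log2 scale on the Ccr2-/- arrays and 12.61 to 13.26 on the others. The probes for Ccl2 gave 8.82 to 9.22 on wild type and 9.23 to 9.87 on Ccl2-/- arrays, and their position relative to the deletion was not known here. Ccl2-/- replicate 1 had a median intensity of 430.8 against 324.1 to 355.1 on the other 8 arrays, and the lowest mean correlation with its own group (r = 0.972 across genes, against 0.981 to 0.994). By limma, 19 of 19 measured NK cell markers were higher in Ccr2-/- than in wild type monocytes, with list means by array of 11.57 to 11.69 in wild type, 11.92 to 12.20 in Ccl2-/- and 12.41 to 12.48 in Ccr2-/-. Markers of Ly-6Chi monocytes were lower in Ccr2-/- for 12 of 13 (11.78 to 12.19, 11.20 to 11.60 and 10.42 to 10.65), as were 12 of 15 general monocyte and macrophage markers. Ccr2, the deleted gene itself, was among the Ly-6Chi markers that fell and entered their list means, so its fall says nothing of the cell mixture. T cell markers passed the test for 0 of 13 genes in either knockout. Their list means were 9.50 to 9.53 on wild type, 8.78 to 9.60 on Ccl2-/- and 8.76 to 10.37 on Ccr2-/- arrays. The part of the cell mixture in the values below was not tested, and fewer cells of a type and less RNA per cell cannot be told apart in such samples.

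Ribosomal protein genes sat slightly below wild type in both knockouts, with few single genes past the test. Relative to the wild type mean of each gene, the median of the 59 members was 0.01, 0.02 and -0.03 on the log2 scale on the wild type arrays. It was -0.04, -0.10 and -0.10 on the Ccl2-/- arrays and -0.11, -0.11 and -0.12 on the Ccr2-/- arrays. All 6 knockout arrays therefore lay below all 3 wild type arrays, with Ccl2-/- replicate 1 the closest to wild type. Taken relative to the same array's median of all genes, they also did, at -0.27 to -0.07 in Ccl2-/- and -0.13 to -0.10 in Ccr2-/- against -0.03 to 0.02 in wild type. The median of all 19938 genes did not run the same way: it was -0.01, 0.05 and -0.04 in wild type, 0.23, 0.03 and -0.04 in Ccl2-/- and -0.01, 0.02 and 0.01 in Ccr2-/- monocytes. The number of members below their wild type mean was 25, 23 and 45 of 59 on the wild type arrays, 37, 51 and 50 on the Ccl2-/- arrays and 47, 47 and 50 on the Ccr2-/- arrays.

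**Figure D1:**
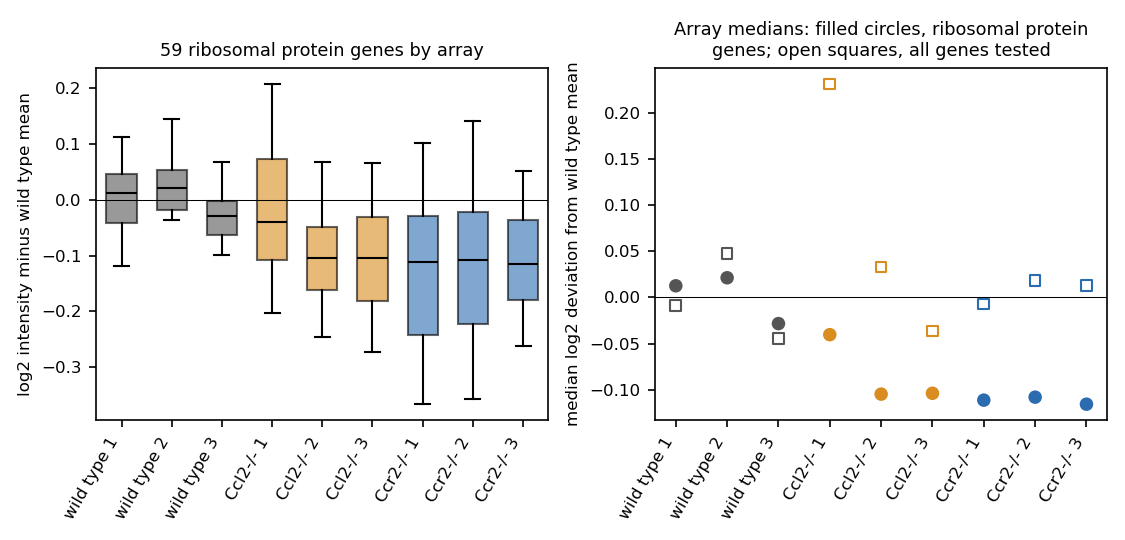
Left, log2 intensity minus the gene's wild type mean for the 59 ribosomal protein genes on each array (box, quartiles with the median as a line; whiskers, 5th to 95th percentile). Right, the median of that deviation per array for the 59 genes (filled circles) and for all 19938 genes (open squares); the circles of all 6 knockout arrays lie below those of the wild type arrays, and the highest square belongs to Ccl2-/- replicate 1.

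Spread within a genotype was small for these genes. The median within-genotype SD was 0.07 on the log2 scale for members and 0.15 for all genes. No SD was taken over other genes of like brightness, so a part of intensity in this gap was not tested. Of the 59 members, 41 had a mean intensity above the 95th percentile of all genes (11.94), and 5 had a mean below 10: Rpl10l, Rpl3l, Rpl39l, Rps4l and Rpl12. Intensities of different probes are not comparable as amounts of RNA, so these ranks say only where on the scale the members were read.

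In the comparison of Ccl2-/- with wild type, which asks what loss of the ligand does, 50 of 59 members had a lower mean in Ccl2-/- monocytes (84.7%), where 31.3% of all genes did. The median change was -0.09 (0.942-fold) over the members, with a range of -0.40 to 0.27, and 0.08 over all genes. Median centring of the arrays moved the all-gene median to -0.03 and that of the members to -0.20. Relative to all genes, the members' median was -0.17. The count was 52 without Ccl2-/- replicate 1, when the median of all genes was -0.00028, and 44 to 52 over the arrays left out in turn. Of the large subunit 30 of 37 members were lower, with a median of -0.07, and of the small subunit 20 of 22, with a median of -0.10. Read at the cluster with the highest mean, changes were small: 55 of 59 members moved by less than 1.2-fold (93.2%, against 82% of all genes). The 95% interval stayed within 1.5-fold for 57 and within 2-fold for all 59.

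No member passed limma's test at an adjusted p under 0.05, at which 0.16% of all genes did. At an unadjusted p under 0.05, 10 members were lower and 0 higher, against 6.32% and 6.78% of all genes. With an intensity trend in limma's variances, Rpl6, Rps7 and Rps9 passed the adjusted test, all lower (5.08% of members, against 1.84% of all genes). The 3 Ccl2-/- arrays lay below the 3 wild type arrays for 25 members and above them for 1, against 9.31% and 9.43% of all genes. Among the 5 members with the smallest p was Rps7, a small subunit protein. It read 12.91, 12.94 and 12.93 in wild type, 12.75, 12.77 and 12.68 in Ccl2-/- and 12.69, 12.76 and 12.75 in Ccr2-/- monocytes. All 6 knockout arrays were below the wild type arrays, by -0.20 ± 0.06 (SE, n = 3 arrays; limma adjusted p = 0.21) in Ccl2-/- and -0.20 (adjusted p = 0.066) in Ccr2-/- monocytes. Rpl6, of the large subunit, read 13.004, 12.996 and 12.94 in wild type, 12.83, 12.83 and 12.74 in Ccl2-/- and 12.73, 12.74 and 12.83 in Ccr2-/- monocytes. Neither knockout overlapped wild type for it, with changes of -0.18 and -0.21. The others of the 5 were Rps4x, Rps9 and Rpl14, given below.

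In the comparison of Ccr2-/- with wild type, which asks what loss of the receptor does, 51 of 59 members had a lower mean in Ccr2-/- monocytes (86.4%), against 47.7% of all genes. The median change was -0.12 (0.919-fold), with a range of -0.47 to 0.26, and 0.01 over all genes, a difference of -0.13. Leaving out each array in turn gave 45 to 51 members lower. The small subunit stood at -0.16 with 20 of 22 lower and the large at -0.09 with 31 of 37 lower, a gap that was not tested. Of the 59 members, 52 moved by less than 1.2-fold (88.1%, against 79.7% of all genes), and all 59 intervals stayed within 2-fold. By limma, 5 members fell and 0 rose. That is 8.47% of them, where 8.38% of all genes fell and 4.91% rose, so the share that fell was near that of all genes. In either direction, 13.3% of all genes passed, against 8.47% of the members. The 3 Ccr2-/- arrays lay below all wild type arrays for 30 members and above for 1, against 18.1% and 15.7% of all genes. At an unadjusted p under 0.05, 19 members were lower and 1 higher, against 13.5% and 9.78%.

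Both knockouts were set against the same 3 wild type arrays, so their changes share that error and are given side by side.

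**Figure D2:**
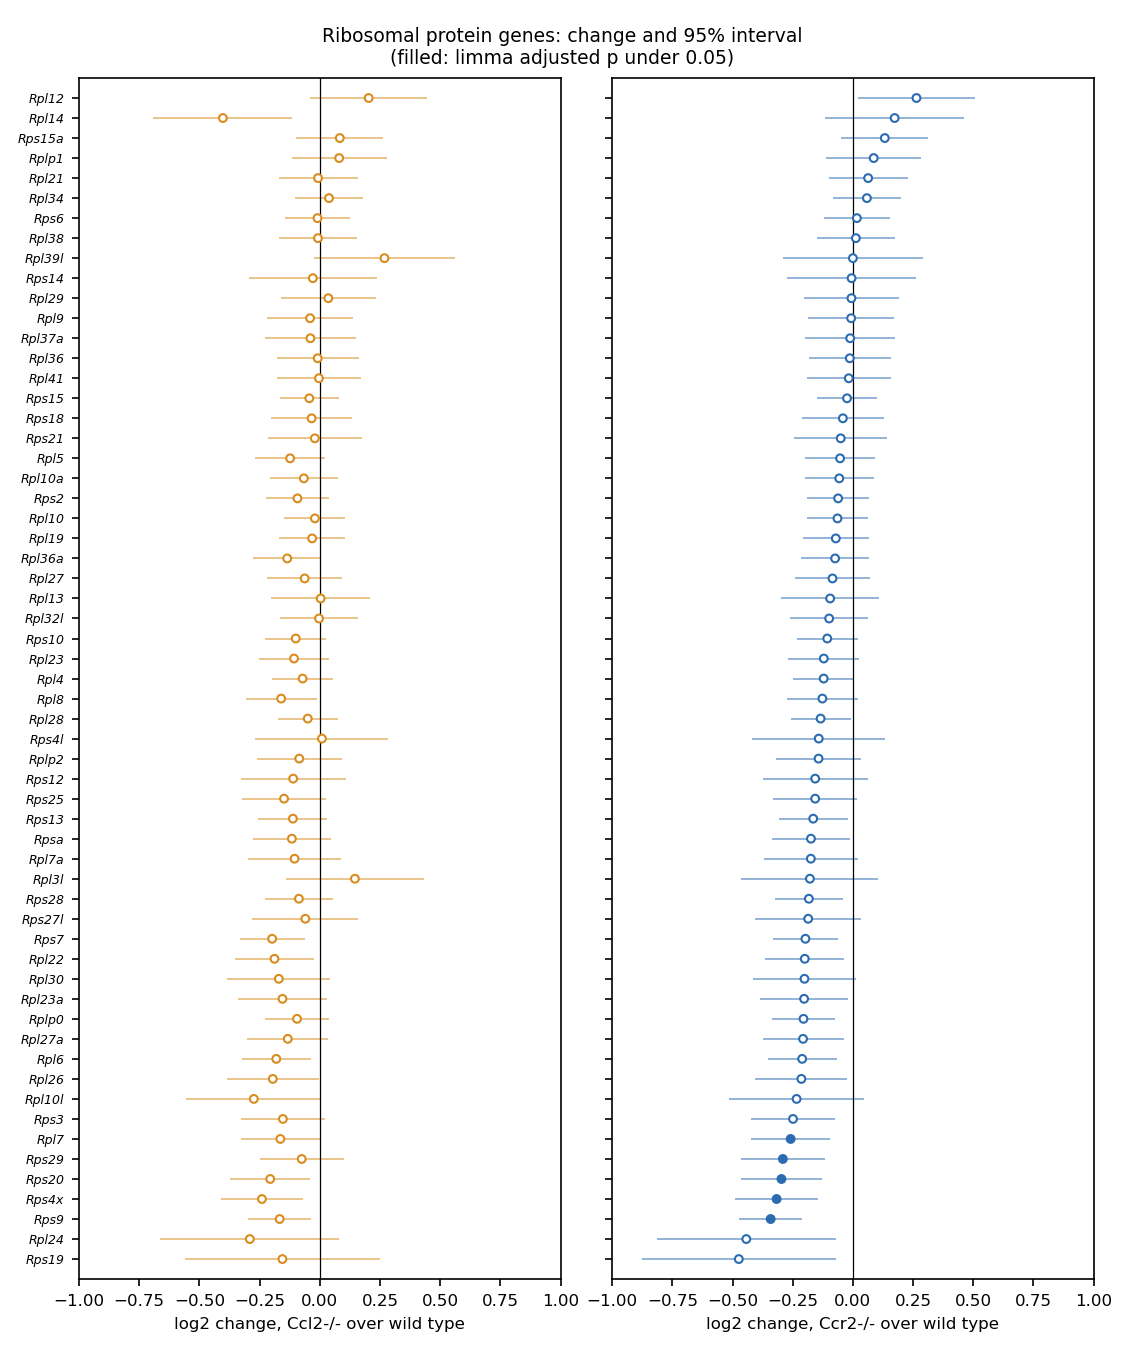
Log2 change of each of the 59 ribosomal protein genes in Ccl2-/- (left) and Ccr2-/- (right) against wild type, with its 95% interval from limma; genes are ordered by the change in Ccr2-/- monocytes and filled points have an adjusted p under 0.05. Most points lie to the left of 0 in both panels, from -0.40 to 0.27 on the left and from -0.47 to 0.26 on the right, and the 5 filled points are Rps9, Rps4x, Rps20, Rps29 and Rpl7.

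Of the 5 members that fell in Ccr2-/- monocytes, 4 belonged to the small subunit. Rps9, a protein of the subunit's early assembly whose start carries the 9-base run shown above, read 13.06, 13.09 and 13.05 in wild type, 12.93, 12.92 and 12.85 in Ccl2-/- and 12.70, 12.71 and 12.76 in Ccr2-/- monocytes. The 3 genotypes did not overlap, with Ccl2-/- between the others. Its change was -0.34 ± 0.06 (SE, n = 3 arrays; 0.789-fold; limma adjusted p = 0.0052) in Ccr2-/- and -0.17 (adjusted p = 0.28) in Ccl2-/- monocytes. After median centring of the arrays, the adjusted p in Ccr2-/- was 0.0556.

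Rps4x, the X-linked form of RPS4, read 12.82, 12.86 and 12.74 in wild type, 12.60, 12.63 and 12.46 in Ccl2-/- and 12.44, 12.45 and 12.58 in Ccr2-/- monocytes. Both knockouts lay below wild type and overlapped each other. The change was -0.32 (limma adjusted p = 0.025) in Ccr2-/- and -0.24 (adjusted p = 0.23) in Ccl2-/- monocytes. Rps20 read 13.03, 13.08 and 13.05 in wild type, 12.80, 12.93 and 12.82 in Ccl2-/- and 12.69, 12.71 and 12.87 in Ccr2-/- monocytes. Neither knockout overlapped wild type, and the change was -0.30 (limma adjusted p = 0.029) in Ccr2-/- and -0.21 (adjusted p = 0.28) in Ccl2-/- monocytes.

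Rps29, a small zinc-binding protein of the small subunit, read 11.83, 11.78 and 11.71 in wild type, 11.77, 11.58 and 11.74 in Ccl2-/- and 11.53, 11.41 and 11.51 in Ccr2-/- monocytes. The Ccl2-/- arrays overlapped wild type and the Ccr2-/- arrays lay below both, with a change of -0.29 (limma adjusted p = 0.039) against wild type. Rpl7, of the large subunit, read 12.48, 12.38 and 12.34 in wild type, 12.25, 12.20 and 12.26 in Ccl2-/- and 12.12, 12.06 and 12.23 in Ccr2-/- monocytes. Both knockouts lay below wild type, by -0.16 (limma adjusted p = 0.38) and -0.26 (adjusted p = 0.048). Rps9 was the one member still past the test without any 1 of wild type replicates 1 and 2 and Ccr2-/- replicates 1 and 2. Rps9 and Rps4x passed without wild type replicate 3, and 10 passed without Ccl2-/- replicate 1, 9 lower and 1 higher. These counts of 1, 2 and 10 were 1.69%, 3.39% and 16.9% of the members. In the same fits 8.34% to 9.17%, 9.55% and 17.4% of all genes passed, in either direction. The count of 5 was 1 after median centring (Rps19), 2 after quantile normalization (Rps9 and Rps29), 17 with an intensity trend and 18 with array quality weights, where all but Rpl12 were lower. The share of all genes past the test, in either direction, was 13.3% in the reported fit, 8.26% after centring, 12.3% after quantile normalization, 16.4% with the trend and 22.9% with the weights, against 8.47%, 1.69%, 3.39%, 28.8% and 30.5% of the members.

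The lowest changes by size did not pass. Rps19, whose human counterpart is mutated in Diamond-Blackfan anemia, read 11.50, 11.69 and 11.29 in wild type, 11.70, 11.19 and 11.13 in Ccl2-/- and 10.94, 10.88 and 11.25 in Ccr2-/- monocytes. The Ccr2-/- arrays were all below wild type but scattered widely, and the change of -0.47 ± 0.18 (SE, n = 3 arrays) had an adjusted p of 0.14 by limma. Rpl24, at the interface of the subunits, read 11.68, 11.43 and 11.24 in wild type and 10.81, 10.91 and 11.31 in Ccr2-/- monocytes. These overlapped, with a change of -0.44 (limma adjusted p = 0.13). By the methods' size limits, a ratio over 1.2 and a difference over 100 applied to group means, 6 members were lower in Ccr2-/- (Rpl24, Rps19, Rps20, Rps29, Rps4x and Rps9) against 9.21% of all genes, and 2 in Ccl2-/- monocytes (Rpl14 and Rpl24) against 3.76%.

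Some members differed little in size from wild type. Rps6, the classical substrate of the S6 kinases downstream of mTORC1, read 13.82, 13.76 and 13.78 in wild type, 13.81, 13.73 and 13.80 in Ccl2-/- and 13.81, 13.84 and 13.76 in Ccr2-/- monocytes. All 3 genotypes overlapped, and the 95% interval of the change ran from -0.15 to 0.13 in Ccl2-/- and from -0.12 to 0.15 in Ccr2-/- monocytes. Rpl10, which joins the large subunit late in its maturation, changed by -0.02 and -0.06, with intervals of -0.15 to 0.11 and -0.19 to 0.06, and its Ccr2-/- arrays all lay below wild type while the Ccl2-/- arrays overlapped it. Rps15 changed by -0.04 in Ccl2-/- and -0.02 in Ccr2-/- monocytes, and all 6 knockout arrays (13.49 to 13.54) lay below the wild type arrays (13.54 to 13.57), by less than 0.01 at the closest. The highest change against wild type in Ccr2-/- monocytes was that of Rpl12, which binds at the base of the stalk. It read 8.93, 8.82 and 8.83 in wild type and 9.07, 9.18 and 9.13 in Ccr2-/- monocytes, which did not overlap, with a change of 0.26 (limma adjusted p = 0.17).

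**Figure D3:**
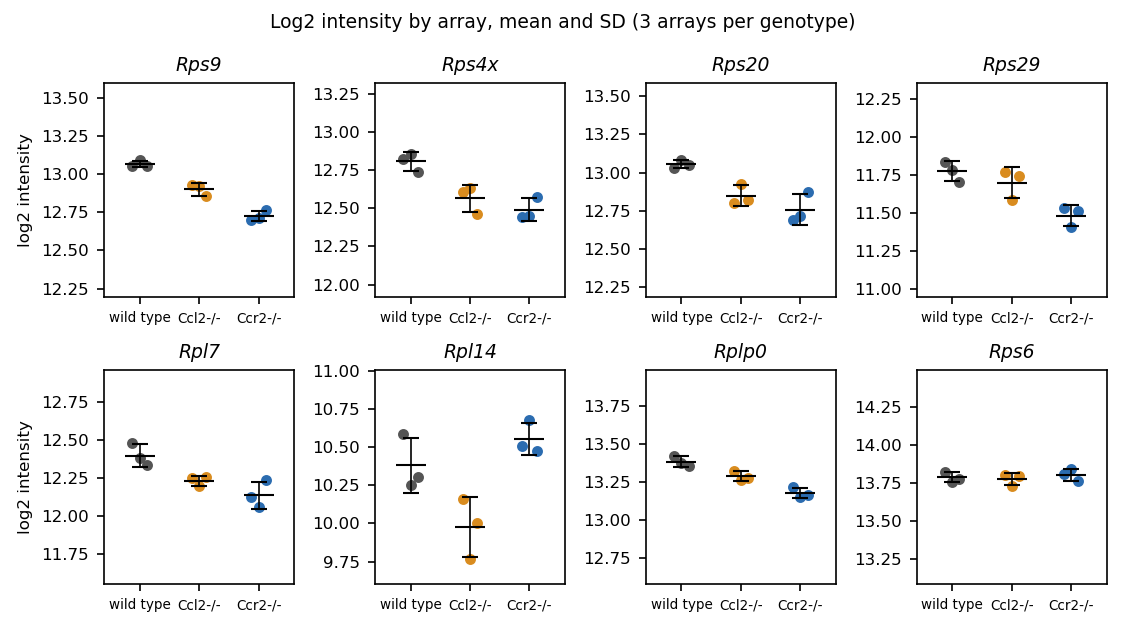
Log2 intensity of 8 ribosomal protein genes on each array (points), with the mean and SD of the 3 arrays per genotype (bars); each panel spans the same width of the log2 scale around its own centre. Rps9 steps down from wild type (13.05 to 13.09) over Ccl2-/- (12.85 to 12.93) to Ccr2-/- (12.70 to 12.76), Rpl14 is lowest in Ccl2-/- and Rps6 overlaps in all 3 genotypes.

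The stalk proteins recruit elongation factors to the large subunit, and none of the 3 passed the test. Rplp0, the base of the stalk and a common reference gene, read 13.42, 13.37 and 13.35 in wild type, 13.32, 13.26 and 13.27 in Ccl2-/- and 13.22, 13.15 and 13.16 in Ccr2-/- monocytes. The genotypes did not overlap and Ccl2-/- lay between the others, with changes of -0.09 and, in Ccr2-/-, -0.21 (limma adjusted p = 0.053). Rplp2 changed by -0.09 and -0.14, and Rplp1 by 0.08 and 0.09, where its arrays overlapped wild type in both knockouts. Wild type replicate 1 read 12.85 for Rplp1 and the others 13.09 and 13.07, and without it the changes were 0.0030 and 0.0090. After median centring, the change of Rplp1 in Ccl2-/- monocytes was -0.033.

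Members with roles outside the ribosome were read next. Rpsa, also known as the laminin receptor, changed by -0.12 in Ccl2-/- and -0.17 (limma adjusted p = 0.17) in Ccr2-/- monocytes. Rps3, which also takes part in DNA repair and NF-kappaB signalling, read 12.24, 12.33 and 12.27 in wild type and 11.95, 12.06 and 12.09 in Ccr2-/- monocytes. These did not overlap, with a change of -0.25 (limma adjusted p = 0.070). Rpl5, which with 5S RNA and RPL11 binds the p53 regulator MDM2, changed by -0.12 and -0.05, and its 95% interval in Ccr2-/- monocytes ran from -0.20 to 0.09.

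Several ribosomal proteins have a paralog with restricted expression. Rpl3l, a striated muscle form, read 7.40 to 7.70 in wild type monocytes, and the germ cell forms Rpl10l and Rpl39l read 7.15 to 7.31 and 6.53 to 6.99. Their changes against wild type in Ccl2-/- and Ccr2-/- monocytes were 0.15 and -0.18 for Rpl3l, -0.27 and -0.23 for Rpl10l, and 0.27 and -0.00013 for Rpl39l. None of the 3 passed the test, and all had mean intensities below the median gene of the array (8.68). Rps4l, with a mean of 8.48 also below that median, changed by 0.01 and -0.14, and its other cluster by -0.21 and -0.01. Rps27l, a p53-inducible form, changed by -0.06 and -0.19, Rpl22 by -0.19 and -0.20, and Rpl36a by -0.14 and -0.07. Rpl7l1, a paralog of Rpl7 whose symbol lay outside the rule, changed by -0.09 and -0.07. It read 12.39, 12.44 and 12.37 in wild type and 12.24, 12.34 and 12.41 in Ccr2-/- monocytes, which overlapped.

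Compared directly, Ccr2-/- and Ccl2-/- monocytes differed in 1 member, where 0.732% of all genes were higher in Ccr2-/- and 2.87% lower. This was Rpl14, which carries the 14-base pyrimidine run. It read 10.58, 10.25 and 10.30 in wild type, 10.16, 9.77 and 10.004 in Ccl2-/- and 10.51, 10.68 and 10.48 in Ccr2-/- monocytes. The Ccl2-/- arrays were below all others, and the Ccr2-/- arrays overlapped wild type. The direct difference was 0.58 ± 0.13 (SE, n = 3 arrays; 1.49-fold; limma adjusted p = 0.047), from a change of -0.40 (adjusted p = 0.23) in Ccl2-/- and 0.17 (adjusted p = 0.54) in Ccr2-/- monocytes. It passed in 1 of the 9 fits with an array left out, that without Ccl2-/- replicate 1. Rpl14 lies on chromosome 9, as does Ccr2, with 50 protein-coding genes between them in RefSeq order. Rpsa lies 55 genes from Ccr2 and Rpl23a, on chromosome 11, 52 genes from Ccl2, with changes in Ccl2-/- and Ccr2-/- monocytes of -0.12 and -0.17 for Rpsa and -0.16 and -0.20 for Rpl23a.

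Beyond Rpl14 no member passed the direct test. Ccr2-/- was lower than Ccl2-/- for 40 of 59 (67.8%), against 67.5% of all genes, and the members' median was -0.03 against -0.08 for all genes. This median changed sign with the scaling, to 0.080 after median centring of the arrays and 0.0047 after quantile normalization, and the count of lower members was then 9 and 26. Arrays did not overlap for 9 members that were lower and 1 that was higher in Ccr2-/-, against 16% and 7.58% of all genes. At an unadjusted p under 0.05, 3 members were lower and 1 was higher, against 12.9% and 5.66%. By the size limits 1 was higher (Rpl14) and 1 lower (Rps19), against 3.47% and 9.16%.

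Genes read as brightly as most members are set beside them without a test. Among the 956 other genes above the 95th percentile of mean log2 intensity, 45.5% were lower in Ccl2-/- and 57.7% in Ccr2-/- than in wild type, with median changes of 0.01 and -0.03. Of the 41 members above it, 37 (90.2%) were lower in Ccl2-/- and 35 (85.4%) in Ccr2-/- monocytes. Past the test in Ccr2-/- monocytes, 22.5% of the bright other genes fell, and 4 of the 41 members (9.76%).

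For 39 members several clusters carried the symbol alone, and the other 20 had 1. In Ccr2-/- against wild type all clusters lay lower for 32 genes, all lay higher for 4 (Rpl21, Rpl38, Rplp1 and Rps6), and the clusters differed in direction for Rpl36 (-0.02 to 0.03), Rpl9 (-0.03 to 0.01) and Rps14 (-0.0056 to 0.02). Of all 215 member clusters 183 were lower, and 16 fell when all single-symbol clusters were tested (7.44%, against 8.04% of the 21789). Both Rps9 clusters fell, by -0.34 and -0.59, as did all 5 of Rps4x, all 4 of Rps29 and all 4 of Rpl7. The size of a change could therefore depend on the cluster read. Rps9 changed by -0.34 at a mean log2 of 12.90 and by -0.59 at 11.93. Rps2 went the other way, with -0.06 at 13.16 and -0.0002 at 12.06. Ribosomal protein genes have many processed pseudogenes and clusters may share probes: the 3 clusters of Rpl41 held identical values. Clusters were therefore not counted as separate evidence, and signals of a gene and its pseudogene copies cannot be told apart on these arrays.

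Other genes of translation were read from lists. Fau, which encodes RPS30 as a fusion protein, read 13.44 to 13.45 in wild type and changed by -0.03 and -0.11. Of 8 measured elongation and other TOP genes, 0 rose and 1 fell in Ccr2-/- monocytes (12.5%, where 8.38% of all genes fell). The median changes were -0.06 in Ccl2-/- and -0.08 in Ccr2-/-. The one that fell was Eef1b2, a subunit of the exchange factor of eEF1A (-0.34, limma adjusted p = 0.043). Eef1a1 itself changed by -0.04 and -0.09 and Tpt1, another TOP mRNA, by -0.03 and -0.07. Among 30 initiation factors, 4 fell and 0 rose in Ccr2-/- monocytes: the eIF3 subunits Eif3h (-0.38, adjusted p = 0.011), Eif3f (-0.30) and Eif3k (-0.28), and Eif2b2 (-0.33). This was 13.3% of the list, where 8.38% of all genes fell. With single arrays left out, between 1 and 6 fell: 1 when wild type replicate 1 or Ccr2-/- replicate 1 was dropped, 2 when replicate 2 of either group was, and 6 when Ccl2-/- replicate 1 was. After median centring 1 fell, with the replicate block 2 and with array quality weights 8. The medians were -0.06 in Ccl2-/- and -0.05 in Ccr2-/- monocytes. In Ccl2-/- monocytes no gene of either list passed.

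Ribosome biogenesis genes encode the nucleolar factors that process ribosomal RNA and assemble the subunits. Of 60 measured ribosome biogenesis genes, 13 rose (21.7%) and 2 fell (3.33%) in Ccr2-/- monocytes, where 4.91% of all genes rose and 8.38% fell. The median change was 0.10. In Ccl2-/- monocytes 0 changed and the median was 0.02. Gnl3, which encodes the nucleolar protein nucleostemin, read 9.33, 9.38 and 9.36 in wild type, 9.51, 9.62 and 9.53 in Ccl2-/- and 9.90, 10.01 and 9.88 in Ccr2-/- monocytes. The genotypes did not overlap, and its change in Ccr2-/- was 0.57 (limma adjusted p = 0.0010). Tsr1, needed for small subunit maturation, changed by 0.47 (adjusted p = 0.0027) and Dkc1, the pseudouridine synthase of box H/ACA particles, by 0.55 (adjusted p = 0.0037). The 2 that fell were Ltv1 (-0.33) and Pes1 (-0.25), which act in small and large subunit assembly. Against Ccl2-/- directly, 5 of the 60 (8.33%) were higher in Ccr2-/- monocytes, Gnl3, Tsr1, Lyar, Wdr75 and Ddx10, and 0 lower. Of all genes 0.732% were higher and 2.87% lower. Leaving out wild type replicate 1 or 2 lowered the 13 to 7, leaving out Ccr2-/- replicate 2 gave 8, and 4 after median centring. Of all genes, 8.6%, 9.17%, 8.54% and 8.26% passed in those settings in either direction, against 13.3% in the reported fit. Over all arrays left out in turn, the count of biogenesis genes that rose ran from 7 to 18. NK cell markers rose in the same arrays, and their part in these genes was not tested.

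**Figure D4:**
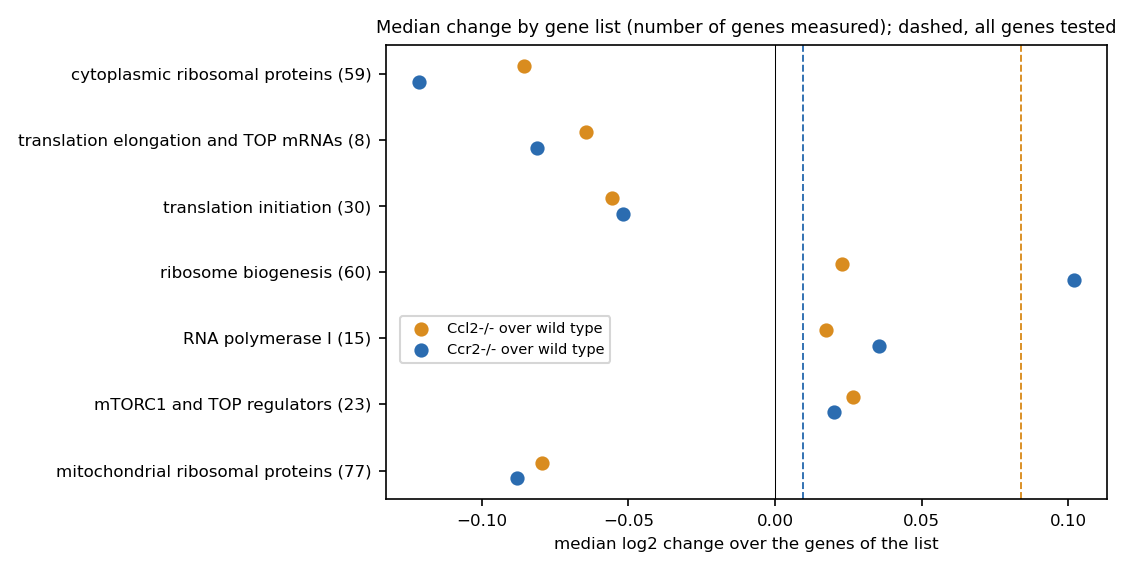
Median log2 change against wild type over the genes of 7 lists (number measured in brackets) in Ccl2-/- (orange) and Ccr2-/- (blue) monocytes; dashed lines mark the medians of all genes. Cytoplasmic ribosomal protein genes are lowest in Ccr2-/- at -0.12, mitochondrial ones stand at -0.09, and ribosome biogenesis genes stand at 0.10.

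RNA polymerase I, which transcribes ribosomal RNA, had 1 of 15 genes (6.67%, where 4.91% of all genes rose) past the test in Ccr2-/- monocytes, the subunit Polr1b (0.33, limma adjusted p = 0.024). Of 23 regulators of mTORC1 and of TOP mRNAs, 1 rose (4.35%) and 3 fell (13%), against 4.91% and 8.38% of all genes. Myc, a transcription factor that drives ribosome production, rose by 0.60 (adjusted p = 0.0016), and Deptor, an inhibitor of mTOR, read 10.61, 10.48 and 10.52 in wild type, 9.66, 9.79 and 10.12 in Ccl2-/- and 8.89, 9.11 and 9.32 in Ccr2-/- monocytes. Its genotypes did not overlap, and the change was -1.43 (adjusted p = 0.00072) in Ccr2-/- monocytes. Eif4ebp1, a translation repressor that mTORC1 inactivates, fell by 0.47 and Mlst8, a subunit of mTORC1, by 0.37. Mtor changed by 0.10 and 0.11 and Larp1 by 0.08 and 0.06, and neither passed the test. Mtor overlapped wild type in both knockouts. The Ccl2-/- arrays of Larp1 (11.70 to 11.84) all lay above wild type (11.66 to 11.68), and its Ccr2-/- arrays overlapped it.

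Mitochondrial ribosomal protein genes, a separate nuclear-encoded set, had 0 of 77 past the test in Ccl2-/- and 8 in Ccr2-/- monocytes, all lower, with medians of -0.08 and -0.09. The 8 were 10.4% of the list, where 8.38% of all genes fell. Mrpl33 read 11.56, 11.46 and 11.41 in wild type, 11.12, 11.15 and 11.37 in Ccl2-/- and 10.62, 10.73 and 10.92 in Ccr2-/- monocytes. The Ccr2-/- arrays lay below all others, with a change of -0.72 (limma adjusted p = 0.0022). Mrpl48 and Mrpl43 changed by -0.58 and -0.56. The count of 8 ran from 4 to 12 over the arrays left out, with 4 without any 1 of the 3 wild type arrays or without Ccr2-/- replicate 1 or 2, and 5 without Ccl2-/- replicate 2.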

How the data were processed

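RNA of monocytes from 9 pools of 5 mice was hybridised to Affymetrix Mouse Gene 1.0 ST arrays, and the authors computed intensity values with dChip. The deposited table holds linear intensity for 35512 transcript clusters; the dChip version, normalization and expression model are not given in the sources used here. Symbols came from the platform's annotation and names were updated with RefSeq. The 21789 clusters with a single symbol gave 19938 genes, 999 of them with several clusters, and the 1621 clusters with more symbols and the 12102 without one were not used. The log2 of each value, floored at 1, entered lmFit and eBayes of limma 3.58.1 (R 4.3.3) with genotype as the factor and the 9 arrays together. The p-values of the 19938 genes were adjusted by Benjamini-Hochberg per comparison, and an adjusted p under 0.05 was called. Changes are on the log2 scale and every p measures the spread between pooled arrays; their number, 3 per genotype, limits the precision. Fits were tested on simulated data. The methods' size limits name no test, and limma was used for that reason.

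Members, gene lists and tests were chosen with earlier results of these data known. Named were members past the test, the 5 with the smallest p where none passed, stalk proteins, members with known further roles, paralog pairs, members whose clusters differed in direction, and up to 3 genes per list with the smallest p. Rpl24, Rpl12, Rps15, Rpl23a, Fau, Eef1a1, Tpt1, Mtor, Larp1, Eif2b2, Mlst8, Ltv1, Pes1, Lyar, Wdr75, Ddx10 and the members listed by count were named after their values were seen. Replicate numbers were not used as pairs in the reported fit. Correlations of same-numbered deviations ran from -0.18 to 0.56, both between wild type and Ccl2-/- arrays. Arrays with different numbers were not set beside them, so these values cannot decide whether the numbers mark a shared batch. Alternatives were quantile normalization, median centring, an intensity trend, a filter that kept means above 100, an added offset of 50, averaging over a gene's clusters, fits restricted to 6 arrays, the replicate block, array quality weights, each array left out, and the size limits. Counts of members lower and of list genes past the test under these were added after seeing the data. Promoter windows (250 bases before to 50 after the start) came from RefSeq.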

Additional observations from a re-analysis of the deposited data

Results flagged for a closer look

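Rpl14 changed by -0.40 in Ccl2-/- and 0.17 in Ccr2-/- monocytes, and the direct test of the difference between the knockouts gave 0.58 on the log2 scale (limma adjusted p = 0.047). Groups of 3 arrays were too small for a test of single arrays that stand apart.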

How the results depend on the processing

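The members' median change kept its sign against wild type under every scaling, filter and left-out array tried, at -0.20 in Ccl2-/- with each array centred on its median, -0.093 in Ccr2-/- with quantile normalization, and -0.14 to -0.094 in Ccr2-/- over the arrays left out. In the direct comparison the median turned to 0.080 with centring and 0.0047 with quantile normalization, and 9 and 26 members were then lower. Counts past the test were less stable. In Ccl2-/- against wild type, 3 members passed with array quality weights, 3 with an intensity trend and 2 by the size limits, all lower, and 0 with any array left out. The first 3 counts were 5.08%, 5.08% and 3.39% of the members, against 10%, 1.84% and 11.6% of all genes in either direction. In Ccr2-/- against wild type, 18 passed with weights (1 higher), 17 with the trend and 2 with quantile normalization. With centring 1 passed (Rps19), with the replicate block 1 (Rps9), and with an array left out 1 to 10. For the block this was 1.69% of the members, against 10.5% of all genes. Over the arrays left out it was 1.69% to 16.9% of the members, against 8.34% to 17.4% of all genes. Directly, 4 passed with weights, 4 with the trend, 2 by the size limits, 0 with the fit of the 6 arrays or the replicate block, and 0 to 1 with an array left out, when Rpl14 had adjusted p from 0.0559 to 0.169 in the fits that lost it. With weights, the trend and the size limits these were 6.78%, 6.78% and 3.39% of the members, against 19.9%, 6.74% and 12.6% of all genes. Whether the replicate numbers pair the arrays was not settled. The cause of these changes was not tested. Values near 0 changed sign. In Ccl2-/- these were Rplp1 with centring (-0.033), Rps4l with weights (-0.021), centring (-0.10), the clusters' mean (-0.10) and quantile normalization (-0.10), and over the arrays left out Rps4l (-0.091 to 0.11), Rps27l (-0.13 to 0.0072, above 0 without Ccl2-/- replicate 1) and Rps6 (-0.024 to 0.014). In Ccr2-/- they were Rps6 (-0.00216 to 0.038) and Rpl39l (-0.15 to 0.076) over the arrays left out. With 3 arrays per genotype, the 95% interval stayed within 1.2-fold for 28 members in Ccl2-/- and 23 in Ccr2-/- monocytes, and changes of that size in the others were not resolved.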
